A study of Arabidopsis thaliana with 18 samples.

Results

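STZ (AT1G27730, also called ZAT10) and RHL41 (AT5G59820, also called ZAT12) are 2 genes of Arabidopsis thaliana that encode zinc finger transcription factors. Their probe sets were found by searching the array's own descriptions and the platform annotation for either gene. The search gave 1 probe set for each gene, so 2 of the 22746 probe sets that are not array controls. The STZ probe set was named by both sources, whereas the RHL41 probe set was named by its description alone, as zinc finger protein Zat12. A further probe set is described as a putative zinc finger and salt-tolerance protein without a locus; it was matched to neither gene and was not used.

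STZ and RHL41 belong to the plant C2H2 zinc finger family, small nuclear proteins that carry a pair of zinc fingers and an EAR motif, through which they can repress target genes. Both are known as early stress genes whose transcripts accumulate within minutes to hours of salt, cold, wounding, high light or hydrogen peroxide. RHL41 is known to be needed for the induction of the cytosolic ascorbate peroxidase APX1 under oxidative stress and is named for the response to high light, and STZ was first isolated because it gave yeast cells tolerance to salt and is known in plants as a phosphorylation target of the kinases MPK3 and MPK6.

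The study tested whole 7-day-old seedlings of 3 genotypes in the Col-0 background of the thale cress. HSFA6b-RD is a line described as dominant-negative for the heat stress transcription factor HSFA6b, HSFA6b-OE is an overexpressor of the same factor, and the wild type is Col-0; they are called RD, OE and WT here. Seedlings of each genotype were kept for 1 h at 37 °C (heat), for 6 h with 150 mM NaCl (NaCl), or at 22 °C as the control, after growth at 22 °C on 0.5-strength MS medium with 1% sucrose. Each of the 9 groups had 2 arrays, labelled as biological replicates, for 18 arrays in all. The promoters of the transgenes and the number of independent lines behind RD and OE are not stated in the labels. Heat and NaCl differ in duration as well as in kind, so stress and time cannot be told apart when they are compared. The control groups have a treatment time of 0 h, and no control matched in time or handling is labelled. The same 2 control arrays of a line serve both stresses. Stress, time and handling therefore cannot be told apart in the comparisons with control either.

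Each array gave a MAS5 signal, an intensity on a linear scale, and a call of Present or Absent for every probe set. The signals had been scaled to a common trimmed mean, which was 498.7 to 499.8 on the 18 arrays, and 63.36% to 73.61% of probe sets were called Present. Only probe sets with 2 Present calls in some group were tested, which held for 17379 probe sets, including both of interest. Differences are given as log2 of the signal ratio, tested with limma over all 18 arrays, and passed when the p-value, adjusted by Benjamini-Hochberg over all tested probe sets, was under 0.05. The p-values rest on the spread between arrays of the same group, estimated over all 9 groups and moderated by limma. The number of arrays limits the precision, and variation between independent lines of a transgene is not covered. Of the 18 arrays, 3 carried another file number series than the rest, namely the first replicates of WT heat, WT NaCl and OE NaCl; no label states what the series stands for. The tissue label was checked with marker genes. The shoot gene RCA, the only 1 of 6 shoot markers with a probe set named for it, was Present on all 18 arrays, and none of the 4 seed markers had a named probe set. The summed signal of 5 of 6 root markers was 595.9 to 1053.8 on the heat arrays, 233.6 to 407.8 on the NaCl arrays and 1486.9 to 2312.7 on the control arrays. The RCA signal overlapped between treatments, at 25983 to 40177.6 with heat, 23413.2 to 42500.3 with NaCl and 28091.5 to 42550.4 in control. By marker, 5 of the 5 were lower with NaCl in RD, 4 in OE and 5 in WT, whereas after heat 0 passed in RD, 1 in OE and 3 in WT. Over all 17379 tested probe sets, 18.3% were lower with NaCl in WT and 13.3% after heat. In RD 5467 of these probe sets passed with NaCl, 2084 of them higher, and 2576 after heat, 940 of them higher. In OE 4589 passed with NaCl, 1990 of them higher, and 3259 after heat, 1120 of them higher. In WT after heat SCR, SHR and AT3G01190 fell, by -3.31, -2.32 and -1.80, while EXPA7 and EXPA18 differed by 0.42 and 0.42 without passing. The summed root signal was lower on the arrays of both stresses, and its part in the results was not tested. In whole seedlings, fewer cells of a type and less RNA per cell cannot be told apart.

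STZ was higher under both stresses in all 3 genotypes. After heat its signal was 1675.3 and 1464.7 on the RD arrays, 1640.6 and 1090.2 on the OE arrays, and 2421.4 and 2229.1 on the WT arrays. With NaCl it was 3065 and 2327.6 in RD, 2852.2 and 3443.4 in OE, and 3192.3 and 3377.3 in WT. In control seedlings it was 146.1 and 250.8 in RD, 109.1 and 135.5 in OE, and 89.9 and 151.9 in WT. All 12 stressed arrays thus lay above all 6 control arrays, whose highest value was 250.8, against 1090.2 for the lowest stressed array. STZ was called Present on all 18 arrays, the controls included.

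The rise of STZ after heat was 3.03 ± 0.31 in RD, 3.46 ± 0.31 in OE and 4.31 ± 0.31 in WT on the log2 scale (difference ± SE, 2 arrays a group), or 8.18-fold, 11.0-fold and 19.9-fold. The limma adjusted p-values were 1.83e-05 in RD, 3.95e-06 in OE and 3.51e-07 in WT. With NaCl the rise was 3.80 in RD, 4.69 in OE and 4.81 in WT with the same SE, or 13.9-fold, 25.8-fold and 28.1-fold. These had limma adjusted p-values of 2.62e-06, 5.33e-07 and 3.06e-07 in the same order of lines. The rise in WT placed STZ 151st from the top of the 17379 probe sets after heat and 87th with NaCl.

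RHL41 was also higher under both stresses in all 3 genotypes. After heat its signal was 1980.7 and 1270.6 in RD, 4754.4 and 4510.3 in OE, and 3318.1 and 4544.2 in WT. With NaCl it was 2292.4 and 2127.2 in RD, 2674.4 and 3781.8 in OE, and 2734.3 and 3678.4 in WT. In control seedlings it was 29.8 and 95.8 in RD, 105.9 and 161.6 in OE, and 67 and 202.6 in WT. The stressed arrays again lay above every control array, with 1270.6 as the lowest stressed value and 202.6 as the highest control value. The control replicates lay far apart for their level, and the signal of 29.8 on the first RD control array was the only one of the 18 called Absent, with a detection p-value of 0.0952.

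The rise of RHL41 after heat was 4.89 ± 0.53 in RD, 5.15 ± 0.53 in OE and 5.06 ± 0.53 in WT (log2 difference ± SE, 2 arrays a group), or 29.7-fold, 35.4-fold and 33.3-fold. The limma adjusted p-values were 2.71e-05 in RD, 1.29e-05 in OE and 1.48e-05 in WT. With NaCl the rise was 5.37 in RD, 4.60 in OE and 4.77 in WT with the same SE, or 41.3-fold, 24.3-fold and 27.2-fold. These had limma adjusted p-values of 1.09e-05 in RD, 4.55e-05 in OE and 3.39e-05 in WT. In WT RHL41 stood 111th from the top after heat and 92nd with NaCl among the 17379 probe sets. The RD ratio rests on low control signals, 1 of them Absent, and without the first RD control array the rise in RD was smaller, at 4.05 after heat and 4.53 with NaCl.

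The 6 responses of STZ and the 6 of RHL41 passed the test as higher. Among all tested probe sets the share called higher after heat was 5.41% in RD, 6.44% in OE and 6.7% in WT. With NaCl it was 12% in RD, 11.5% in OE and 12% in WT. The median log2 difference over all tested probe sets was below 0 in every one of these comparisons, at -0.27 in RD, -0.29 in OE and -0.29 in WT after heat, and -0.22, -0.13 and -0.19 with NaCl in the same order. Both genes therefore rose against a background that moved slightly down. After quantile normalization the median in WT was -0.13 for heat and -0.08 for NaCl, while the rises were 4.45 and 5.02 for STZ and 5.10 and 4.95 for RHL41. The share of higher probe sets among all called in WT after heat was 33.6% with the deposited scaling and 49.5% after quantile normalization, so the split of calls over the array depends on the scaling. In RD this share was 36.5% with the deposited scaling and 55.1% after quantile normalization, and in OE it was 34.4% and 51.6%.

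**Figure D1:**
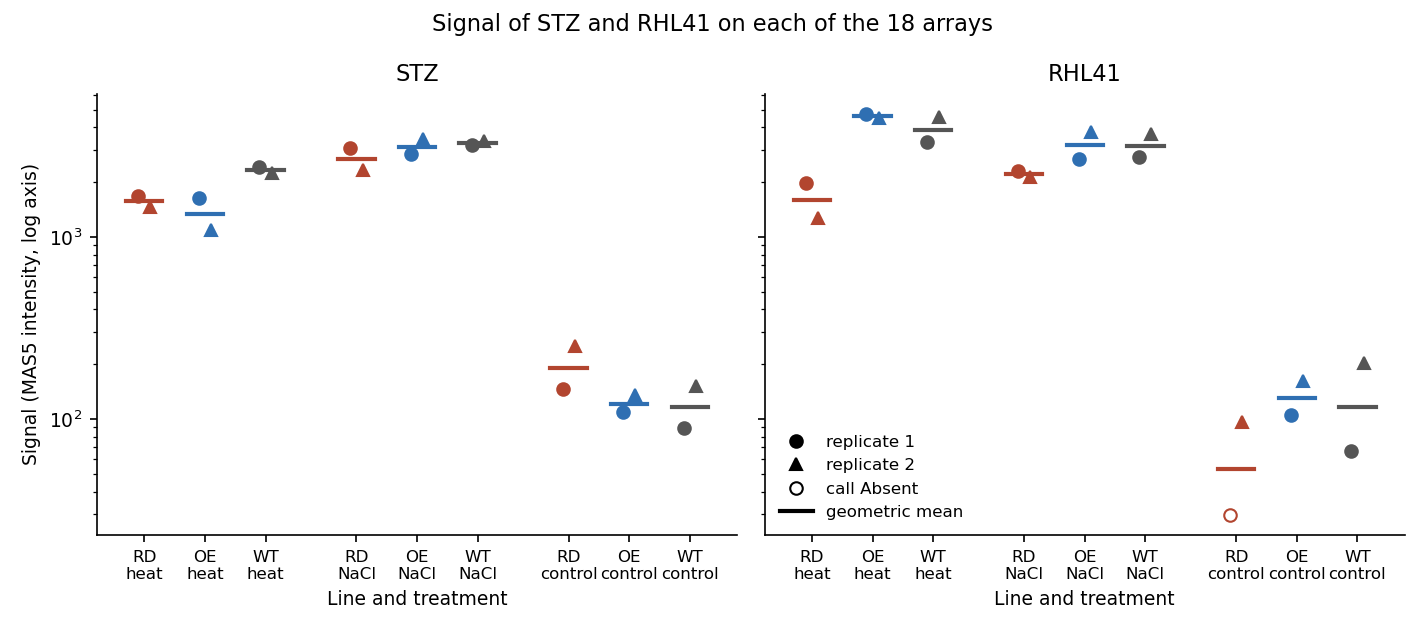
Signal of STZ (left) and RHL41 (right) on each array, on a log axis of MAS5 intensity, for RD, OE and WT seedlings after heat, with NaCl and in control; circles are replicate 1, triangles replicate 2, and bars the geometric mean of 2 arrays. Every stressed array lies above every control array for both genes, and the open circle marks the RHL41 signal of 29.8 that was called Absent.

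**Figure D2:**
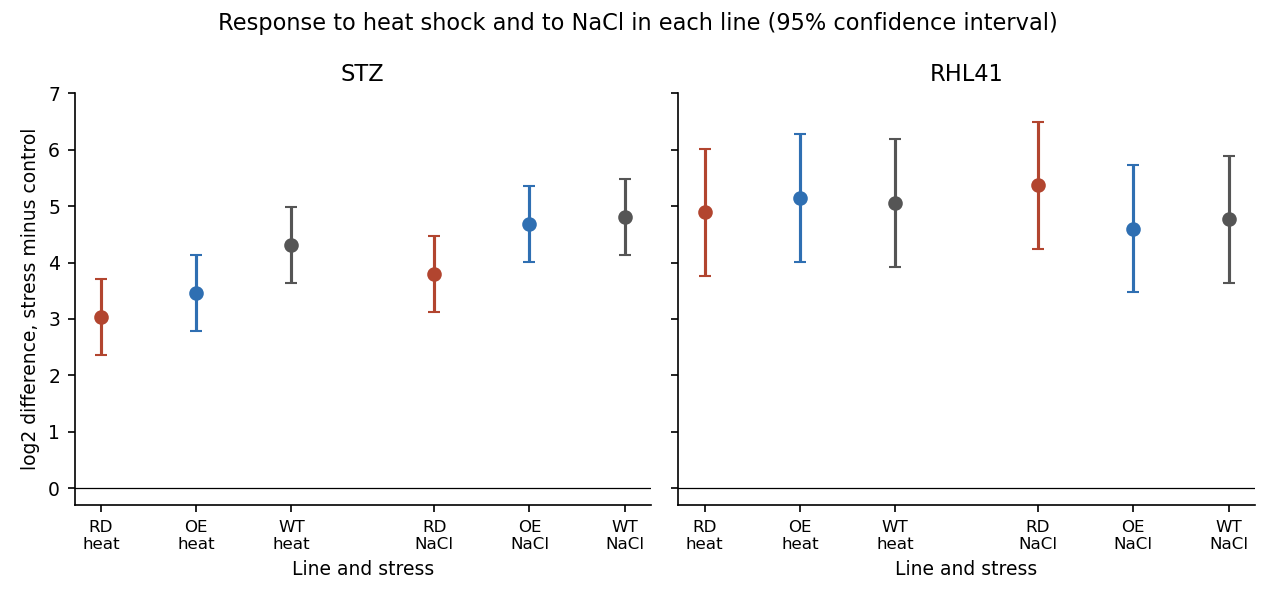
Log2 difference of stress minus control for STZ (left) and RHL41 (right) in RD, OE and WT, with 95% confidence intervals from limma as bars. All 12 differences lie above 0; those of STZ run between 3.03 and 4.81, and those of RHL41 between 4.60 and 5.37.

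The 9 groups were then put in order of their mean log2 signal. For STZ the order ran from WT NaCl (mean signal 3285 ± 131, SD, n = 2) through OE NaCl (3148 ± 418), RD NaCl (2696 ± 521), WT heat (2325 ± 136), RD heat (1570 ± 149) and OE heat (1365 ± 389) to RD control (198 ± 74.0), OE control (122 ± 18.7) and WT control (121 ± 43.8). All NaCl groups thus stood above all heat groups. Only 1 of the 8 steps between neighbours passed the test, that from OE heat to RD control, of 2.80 on the log2 scale (limma adjusted p = 2.49e-05). Among the 15 pairs of stressed groups 5 passed, with a heat group of RD or OE lower than an NaCl group in each; the largest was OE heat against WT NaCl, at -1.30 (limma adjusted p = 0.00609). All 18 pairs of a stressed and a control group passed, and 0 of the 3 pairs of control groups with limma, of which 1 had an unadjusted p under 0.05.

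For RHL41 the order ran from OE heat (4632 ± 173, SD, n = 2) through WT heat (3931 ± 867), OE NaCl (3228 ± 783), WT NaCl (3206 ± 668), RD NaCl (2210 ± 117) and RD heat (1626 ± 502) to OE control (134 ± 39.4), WT control (135 ± 95.9) and RD control (62.8 ± 46.7). In each treatment RD came last of the 3 lines. Only the step from RD heat to OE control passed the test, of 3.60 on the log2 scale (limma adjusted p = 0.00042). All 18 pairs of a stressed and a control group passed. None of the 15 pairs of stressed groups and none of the 3 pairs of control groups passed with limma, although 2 of the stressed pairs and 1 of the control pairs had an unadjusted p under 0.05.

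Heat and NaCl were compared directly within each line. STZ was lower after heat than with NaCl on every array of each line. The log2 difference was -0.77 ± 0.31 in RD (limma adjusted p = 0.0722), -1.23 ± 0.31 in OE (adjusted p = 0.00856) and -0.50 ± 0.31 in WT (adjusted p = 0.253), so that only the one in OE passed. The call in OE needed both second replicates: without the second OE heat array the difference was -0.93 (adjusted p = 0.091), and without the second OE NaCl array it was -1.09 (adjusted p = 0.0668). For RHL41 none of the 3 differences passed with limma and none had an unadjusted p under 0.05. They were -0.48 ± 0.53 in RD, where both heat arrays were lower, 0.54 ± 0.53 in OE, where both were higher, and 0.29 ± 0.53 in WT, where the arrays overlapped. The share of all tested probe sets that differed between heat and NaCl was 34.2% in RD, 33.6% in OE and 28.1% in WT.

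Whether these heat-to-NaCl differences themselves differed between lines was tested as an interaction, a comparison added after the values were seen. No interaction passed with limma for either gene, nor had one an unadjusted p under 0.05. For RHL41 the interaction was -1.02 ± 0.74 between RD and OE, -0.77 ± 0.74 between RD and WT and 0.25 ± 0.74 between OE and WT. For STZ it was 0.46 ± 0.44 between RD and OE, -0.27 ± 0.44 between RD and WT and -0.73 ± 0.44 between OE and WT. Over all tested probe sets 0.196% passed between RD and OE, 0.0345% between RD and WT and 0% between OE and WT, where 1092 had an unadjusted p under 0.05.

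RHL41 read lower in RD than in the other lines under each treatment, but no difference between lines passed the test at any single treatment. In heat both RD arrays (1980.7 and 1270.6) lay below both OE arrays (4754.4 and 4510.3) and both WT arrays (3318.1 and 4544.2). The log2 difference was -1.55 ± 0.53 against OE (unadjusted p = 0.0109 and adjusted p = 0.298, limma) and -1.29 ± 0.53 against WT (unadjusted p = 0.0279 and adjusted p = 0.309, limma). With NaCl both RD arrays again lay below both arrays of each other line, with a difference of -0.53 against OE and -0.52 against WT. In control both RD arrays lay below both OE arrays, with a difference of -1.29, while they overlapped with those of WT, where the difference was -1.12. Without the first RD control array, the one called Absent, the control differences were -0.45 against OE and -0.28 against WT. The 95% confidence intervals were wide, at -2.67 to -0.42 for RD against OE in heat and -2.42 to -0.16 for RD against WT in heat. Between OE and WT the RHL41 arrays differed by 0.25 in heat, by less than 0.01 with NaCl and by 0.17 in control; in heat the interval of -0.87 to 1.38 leaves room for a change in either direction.

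Averaged over the 3 treatments, RHL41 was -1.12 ± 0.30 in RD relative to OE (unadjusted p = 0.00246, adjusted p = 0.0806, limma) and -0.98 ± 0.30 in RD relative to WT (unadjusted p = 0.00617, adjusted p = 0.177, limma). Between OE and WT the average difference was 0.14 ± 0.30. These averages were added after the values had been seen. The average of RD against OE lay close to the threshold and passed it in some fits. Its adjusted p was 0.0456 with the file number series as a block, 0.0358 with the replicate number as a block and 0.0361 from the groups compared alone. It was also under the threshold without the first WT control array (0.0434), without the second WT control array (0.0435) and without the second RD control array (difference -1.40, adjusted p = 0.0179). Without the first RD control array, called Absent, it was smaller, at -0.84 (adjusted p = 0.204), and the average of RD against WT was then -0.70 (adjusted p = 0.309).

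STZ read lower in RD and OE than in WT after heat, and higher in RD in control, but no difference passed. In heat both RD arrays (1675.3 and 1464.7) and both OE arrays (1640.6 and 1090.2) lay below both WT arrays (2421.4 and 2229.1), with log2 differences of -0.57 ± 0.31 for RD and -0.80 ± 0.31 for OE (adjusted p = 0.293 for OE, limma). With NaCl the difference from WT was -0.30 in RD and -0.07 in OE. In control STZ read higher in RD, by 0.71 ± 0.31 against WT, with overlapping arrays, and by 0.65 ± 0.31 against OE, with both RD arrays above both OE arrays. None of the 9 differences between lines at a single treatment passed with limma, and 2 of them had an unadjusted p under 0.05. Averaged over treatments, RD and WT differed by -0.05 ± 0.18, with a 95% confidence interval of -0.44 to 0.34.

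**Figure D3:**
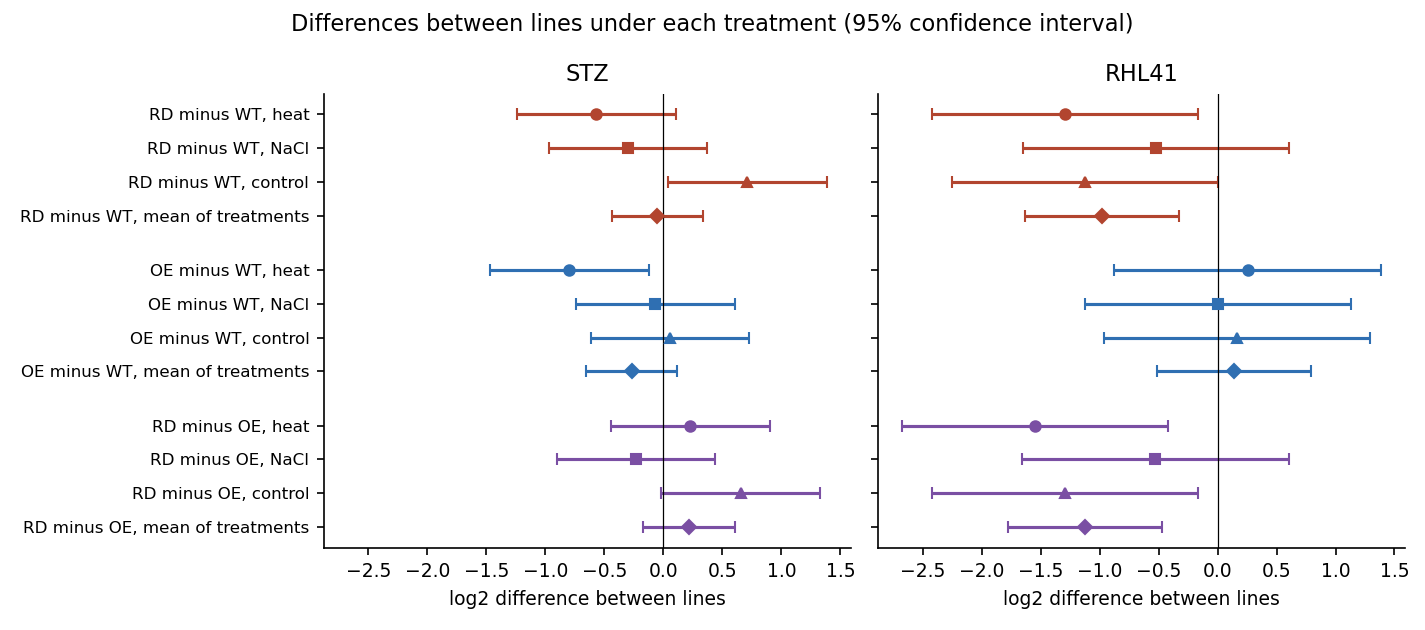
Log2 differences between lines for STZ (left) and RHL41 (right), in heat, with NaCl, in control and as the mean of the 3 treatments, with 95% confidence intervals from limma. Every estimate of RHL41 for RD against WT or OE lies below 0, from -1.55 to -0.52, while those of STZ lie on both sides; no adjusted p was under 0.05.

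The calls between lines were few over the whole array. Between RD and WT 0.207% of tested probe sets passed in heat, 0.437% with NaCl and 0.046% in control. Between OE and WT the shares were 0.115%, 0% and 0.0173% in the same order, with 296 probe sets at an unadjusted p under 0.05 for NaCl. Between RD and OE they were 0.846%, 0.76% and 0.219%. For the averages over treatments the shares were 0.892% for RD against WT, 0.0115% for OE against WT and 2.3% for RD against OE.

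The size of the stress response was compared between lines as well. STZ responded less in RD than in WT by the estimates, by -1.28 ± 0.44 on the log2 scale after heat (unadjusted p = 0.0119, limma) and by -1.01 ± 0.44 with NaCl (unadjusted p = 0.0388, limma). Neither passed over all tested probe sets, with adjusted p-values of 0.77 and 1. The difference combines a lower stressed signal and a higher control signal in RD, and both enter with the same 2 control arrays. For OE against WT the response of STZ differed by -0.85 ± 0.44 after heat and -0.12 ± 0.44 with NaCl, and for RD against OE by -0.43 ± 0.44 and -0.89 ± 0.44. None of the 6 response differences of RHL41 passed or had an unadjusted p under 0.05, and they ran from -0.25 to 0.77 with an SE of 0.74. Without the first RD control array, called Absent for RHL41, the response differences of RHL41 between RD and WT were -1.01 after heat and -0.24 with NaCl, and those between RD and OE were -1.10 and -0.08. Over all tested probe sets 0.00575% passed for RD against WT after heat and 0.0173% with NaCl, 0.0115% and 0% for OE against WT (191 at an unadjusted p under 0.05 with NaCl), and 0.00575% and 0.023% for RD against OE.

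With the file number series as a block the rises in WT were 4.35 after heat and 4.85 with NaCl for STZ, and 5.29 and 5.00 for RHL41. Within the 15 arrays of the larger series they were 4.25 and 4.85 for STZ, and 5.29 and 4.98 for RHL41. The rise in OE with NaCl was 4.73 for STZ and 4.83 for RHL41 with the block, and 4.82 and 4.85 within the larger series. For RD against WT in heat the RHL41 difference was -1.52 with the block and -1.52 within the larger series. The smaller series holds 1 array of each of its groups and no control array, so it gave no value of its own.

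Further genes of the same pathway were taken from lists chosen with earlier results of these data known. Of 11 C2H2 relatives of STZ and RHL41 listed by locus, 4 had a probe set named for them, and the 4 were tested. In WT after heat 0 were higher and 1 was lower with limma, against 6.7% higher and 13.3% lower over all tested probe sets; the median log2 difference of the 4 was -0.51. AT2G28200 (ZAT5) averaged 91.0 after heat and 382 in control and fell by 2.04 ± 0.35 in WT (limma adjusted p = 0.00117). It fell after heat in RD and OE too, with differences of -2.56 and -1.77 (limma adjusted p = 0.000266 and 0.00349). AT2G28710 (ZAT17) and AT3G49930 did not pass in WT, with -1.13 and 0.10 after heat, nor in RD, with -0.94 and -0.70. Both were lower in OE after heat, with -1.72 and -1.10 (limma adjusted p = 0.037 and 0.0211). AT2G28710 was Present on no OE heat array, and its control signal was at least 3.29-fold higher by means of log2 signals. In OE 3 of the 4 were thus lower after heat, where 3259 of all tested probe sets passed, 1120 of them higher. In RD 1 was lower, where 2576 passed, 940 of them higher.

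With NaCl 1 of the 4 relatives was higher in WT and 0 were lower with limma, against 12% higher and 18.3% lower over all tested probe sets. AT3G53600 (ZAT18) was Present on both NaCl arrays of each line and on no heat or control array. Its mean signal with NaCl was 405 in RD, 404 in OE and 313 in WT, at least 47.0-fold, 47.1-fold and 38.6-fold above the lowest Present signals of the control arrays. These bounds come from means of log2 signals. AT3G53600 was tested only because it was Present with NaCl, so its call adds nothing to the values. Its signal was thus measurable with NaCl and not well above background after heat, where STZ and RHL41 were high under both. AT2G28710 and AT3G49930 had differences of -1.40 and -0.72 with NaCl in WT, and AT2G28200 of -0.25, none of which passed. AT3G49930 was lower with NaCl in RD and OE, with -1.10 and -1.46 (limma adjusted p = 0.0135 and 0.0033). It was Present on no NaCl array of either line, and its control signal was at least 2.14-fold and 2.76-fold higher. It was the 1 of the 4 lower in each. Of all tested probe sets 5467 passed with NaCl in RD, 2084 of them higher, and 4589 in OE, 1990 of them higher. Without the first WT NaCl array, or without either OE control array, 1 relative was lower with NaCl in WT.

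Since most relatives had no named probe set, 33 probe sets whose descriptions mention a C2H2 zinc finger were also taken, a list added after the files were read, and 23 of them were tested. In WT 1 was higher and 7 were lower after heat, and 4 were higher and 4 lower with NaCl, with medians of -0.64 and -0.20 against -0.29 and -0.19 over all tested probe sets. Over all tested probe sets 6.7% were higher and 13.3% lower after heat, and 12% and 18.3% with NaCl, while 4.35% of the 23 were higher after heat and 17.4% with NaCl. The number lower after heat was 3 without the second WT heat array, 3 without the first WT control array and 2 without the second. The number lower with NaCl was 1 without the second WT NaCl array and 2 without either WT control array. The 1 higher after heat was a probe set that has no gene name here and is described only as a putative C2H2 zinc finger factor. It was Present on both arrays of every stressed group and on none of the control arrays. Its mean signal was 2094 in RD, 1232 in OE and 3112 in WT after heat; by means of log2 signals this was at least 26.6-fold, 30.5-fold and 48.3-fold above the control level. With NaCl its mean was 853 in RD, 864 in OE and 1341 in WT, at least 9.75-fold, 20.3-fold and 17.1-fold above it. This probe set was chosen for naming after its values were seen. It was tested only because it was Present under stress, so its call adds nothing to the values. The same holds for AT3G53600, one of the 23, and for another unnamed probe set, each Present with NaCl alone.

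**Figure D4:**
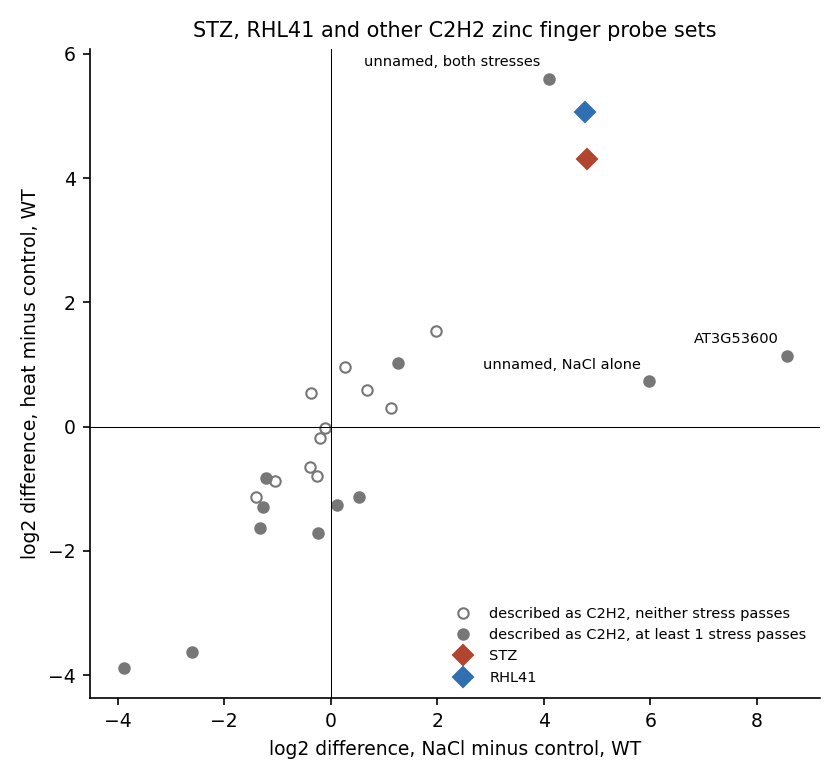
Log2 difference in WT after heat (vertical) against that with NaCl (horizontal) for STZ, RHL41 and 23 tested probe sets described as C2H2 zinc fingers; filled points passed for at least 1 stress, and differences of probe sets called Absent in control depend on their low signals. STZ and RHL41 lie high on both axes, as 1 unnamed probe set does, while AT3G53600 and another unnamed probe set lie high for NaCl alone. AT3G53600 and both unnamed probe sets were tested only because they were Present under stress.

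Genes of the response to reactive oxygen species, the setting in which RHL41 is best known, had smaller differences in WT than STZ and RHL41. Of 14 listed scavenging and related enzymes 2 had a probe set named for them, and of 8 listed signalling genes 4 had one. The others were not matched by name here, so their transcripts were not read. In WT 3 of these 6 were higher and 0 were lower after heat, and 3 were higher and 0 lower with NaCl, with medians of 0.67 and 0.74. Over all tested probe sets 6.7% were higher and 13.3% lower in WT after heat, and 12% and 18.3% with NaCl. The count after heat was 1 without any 1 of the WT heat or WT control arrays, and the count with NaCl was 1 without the second WT NaCl array or either WT control array. After heat 2 of the 6 were higher in RD, while 1 was higher and 1 lower in OE; with NaCl 3 were higher in RD and 1 in OE, with none lower by limma. The shares called higher over all tested probe sets were 5.41% in RD and 6.44% in OE after heat, and 12% and 11.5% with NaCl. AT2G21640, known as a marker of oxidative stress, rose in WT by 2.26 ± 0.46 after heat (limma adjusted p = 0.00348) and by 2.27 ± 0.46 with NaCl (adjusted p = 0.00255). AOX1A, the stress-induced alternative oxidase of mitochondria, rose in WT by 1.21 after heat (limma adjusted p = 0.0264) and by 1.12 with NaCl (adjusted p = 0.0277). The iron superoxide dismutase gene FSD3 of the chloroplast did not pass, with -0.23 and -0.81.

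In WT the kinases showed smaller differences in transcript than STZ and RHL41. MPK3, one of the kinases known to phosphorylate STZ, differed in WT by 0.68 after heat (limma adjusted p = 0.163) and rose by 0.97 with NaCl (adjusted p = 0.0375). In RD MPK3 rose by 1.54 with NaCl (adjusted p = 0.00318) and differed by 0.36 after heat without passing. In OE MPK3 fell by 1.20 after heat (adjusted p = 0.0211), and the difference of this response from WT was -1.87 ± 0.46 (adjusted p = 0.633). With NaCl MPK3 differed by 0.90 in OE without passing. MPK6, the other kinase, differed by -0.54 after heat and 0.25 with NaCl in WT and did not pass. MPK4 rose by 0.66 after heat in WT (limma adjusted p = 0.0331) and by 0.72 in OE (adjusted p = 0.0232), and did not pass in RD, with 0.33.

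ERF5 and ERF6, ethylene response factors known from the early stress response, were the only 2 of 8 listed upstream factors with a probe set named for them. CBF1 and CBF2, cold response activators, were the 2 of 3 listed CBF genes with one. The fit called 4 of these 4 genes higher with NaCl in WT, but CBF1 was Present on no NaCl or control array of WT, so that only ERF5, ERF6 and CBF2 had a measured rise there, of 1.33, 3.50 and 2.73. After heat 1 was higher in WT, and 0 were lower by limma. Over all tested probe sets 12% were higher with NaCl in WT and 6.7% after heat. Without the second WT NaCl array 2 of the 4 were higher with NaCl in WT. The fit also called the 4 higher with NaCl in RD and in OE, whereas 0 of them passed after heat in either line. CBF1 was tested only because it was Present with NaCl in RD and OE, so its calls add nothing to the values. The shares called higher over all tested probe sets were 12% in RD and 11.5% in OE with NaCl, and 5.41% and 6.44% after heat. ERF6 averaged 790 in RD, 1107 in OE and 1040 in WT with NaCl, against 140, 155 and 93.9 in the control groups, a rise of 2.45, 2.84 and 3.50 on the log2 scale. After heat ERF6 rose in WT by 2.28 ± 0.37 (limma adjusted p = 0.000695), and its difference was 0.49 in RD and -0.42 in OE. The response of ERF6 to heat differed from that of WT by -1.79 ± 0.52 in RD and by -2.70 ± 0.52 in OE, with limma adjusted p-values of 0.739 and 0.274.

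ERF5 rose with NaCl by 1.66 in RD, 1.43 in OE and 1.33 in WT, and differed after heat by 0.27, -0.71 and 0.30, with none passing. CBF2 averaged 934 in RD, 1085 in OE and 763 in WT with NaCl, against 150, 61.9 and 97.4 in control, and rose by 2.57, 3.88 and 2.73. CBF1 was Present on both NaCl arrays of RD and OE and on none of the control arrays. By means of log2 signals its NaCl signal was at least 6.09-fold above the control level in RD and at least 15.5-fold in OE. In WT it was not well above background in either group. STZ and RHL41 passed after heat in all 3 lines, where ERF5, ERF6 and CBF2 passed in 1 case, ERF6 in WT. CBF1 was Present on no heat or control array.

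The named genes whose 9 group means were most like those of STZ and RHL41 were found by Pearson correlation, among 1308 tested probe sets with a gene name that is not a locus code. The correlation is a description over 9 groups that share the contrast of stressed and control seedlings, and it carries no p-value. STZ and RHL41 correlated with each other at 0.937 over the 9 group means and at 0.933 over the 18 arrays. By Pearson correlation RHL41 stood 118th of all 17378 other tested probe sets by likeness to STZ, and STZ stood 107th by likeness to RHL41. By Spearman correlation, which uses only the order of the 9 groups, the value was 0.583 and the ranks were 2251 and 1410.

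For STZ the 6 most alike were DER2.1, a derlin of the endoplasmic reticulum, and SRC2, a C2-domain protein, both at 0.989; HEMA2, a glutamyl-tRNA reductase of tetrapyrrole synthesis, at 0.961; VPS2.1, a subunit of the ESCRT machinery, and Fes1A, a cochaperone of HSP70, both at 0.954; and COR47, a dehydrin, at 0.948. For RHL41 they were COR47 at 0.988, the dehydrin LTI30 at 0.987, Fes1A at 0.967, the expansin-like EXLA3 at 0.953, SRC2 at 0.951 and DER2.1 at 0.948. The lists shared 4 genes, namely COR47, DER2.1, Fes1A and SRC2, as 4 of the 6 for each.

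These genes were picked for likeness over the group means, so their shared pattern is no separate result. The sizes of their differences varied. In WT DER2.1 rose by 1.53 after heat and 1.52 with NaCl, SRC2 by 2.56 and 2.44, and COR47 by 2.85 and 2.33, all smaller than the rises of STZ and RHL41. HEMA2 rose by 1.46 and 1.95 in WT and VPS2.1 by 1.32 and 1.21, also smaller. VPS2.1 did not pass after heat in RD or OE, with 0.705 and 0.55. Fes1A rose more in WT, by 7.57 and 6.78. Among the control groups LTI30, COR47, EXLA3 and VPS2.1 read lowest in RD, as RHL41 did, whereas DER2.1, SRC2, HEMA2 and Fes1A read highest there. LTI30, COR47 and EXLA3 were picked for likeness to RHL41 over these means, so the shared low value is no separate result. LTI30 rose in RD by 3.04 after heat and 3.20 with NaCl. EXLA3 was Present on no control or NaCl array and did not pass in WT, so its likeness rests largely on signals not well above background.

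**Figure D5:**
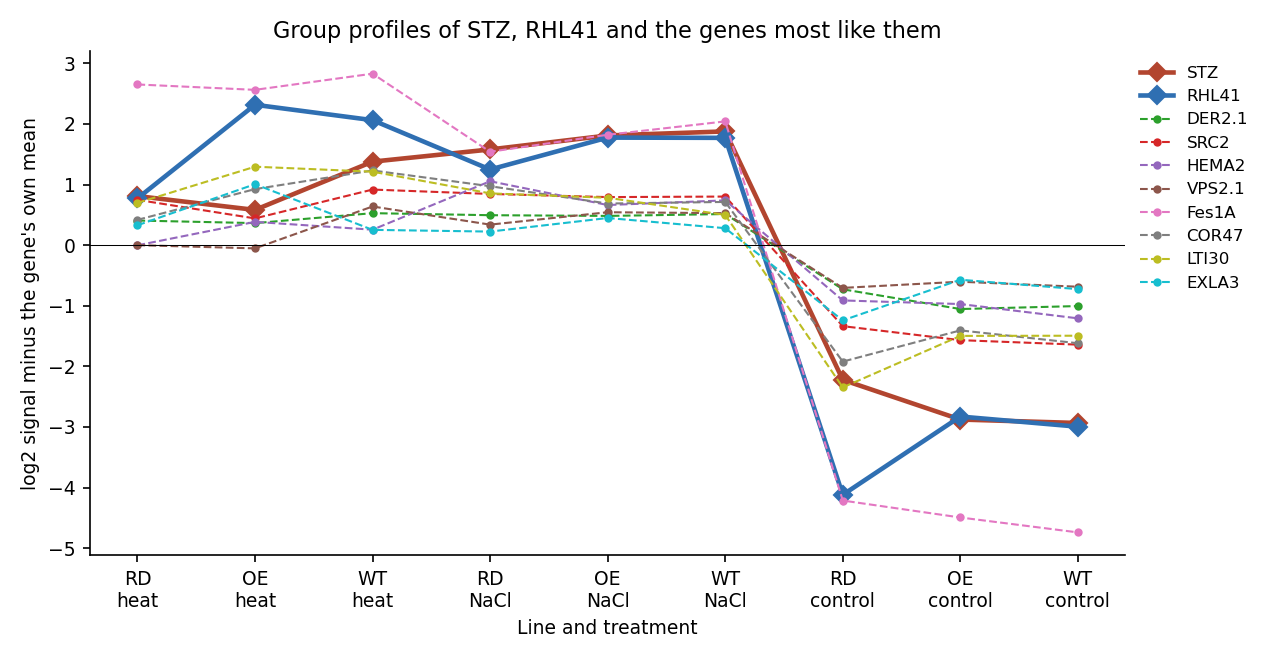
Mean log2 signal of each of the 9 groups minus the gene's own mean over the groups, for STZ, RHL41 and the 8 genes most like either; each point is a group mean of 2 arrays. All profiles are higher in the 6 stressed groups than in the 3 control groups, and RHL41 is lowest in RD control.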

How the data were processed

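Per the labels, the authors hybridised 10 µg of total RNA per sample to 1-colour Affymetrix arrays, and per the submitters' processing notes the signals come from MAS5. The deposited signals are intensities, already scaled by the authors, and the deposited detection p-value gives the Present or Absent call, with Present calls up to a p of 0.0474. A genome build is not given in the sources; none was used. No sequence was read. The separate value table held the same signals. STZ and RHL41, and all lists, were chosen with earlier results of these data known.

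Signals were floored at 0.1 and set to log2. limma 3.58.1 in R 4.3.3 was fitted to all 18 arrays and 9 groups with an intensity trend (9 residual and 4.76 prior degrees of freedom), with Benjamini-Hochberg adjustment within each contrast over 17379 probe sets; Python 3.11.15 was used for tables. Of the probe sets, 13513 had 1 gene symbol, 503 several and 8730 none, and 12 were named from the deposited description. The named genes were STZ, RHL41, from each list the members with the 2 largest and 2 smallest differences in WT, and the 6 most like each gene. For a probe set Absent in a group, a bound is given: the other group's mean against, on each array, the higher of its own signal and the lowest Present signal. On simulated data for WT heat against control, 77 of 100 genes with a log2 change of 2 and 93 of 100 with a change of 4 were recovered, with 10 false calls among 17179. The simulated noise was independent and normal, and no other genes were changed. In the data 3468 probe sets passed in this comparison, so these rates may not carry over. Replicate numbers were tested for pairing over 36 pairs of groups: the correlation of deviations was -0.08 to 0.63 and above 0.1 in 11, so the numbers were not taken as pairs. The alternatives were quantile normalization, a floor of 16, no filter, a filter of Present in 3 groups, no trend, array weights, only the groups compared, the file number series as a block or its larger part alone, a replicate block, each array left out, and Spearman for likeness. HSFA6b itself was not analysed here.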

Additional observations from a re-analysis of the deposited data

How the results depend on the processing

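Over 10 alternatives and 18 left-out arrays, 56 of the 60 differences of STZ and RHL41 kept their side of the threshold, including all rises against control, and no called difference changed sign; differences that did not pass changed sign in 5 values of other settings and in 32 with 1 array left out. With only the groups compared, STZ in RD, heat minus NaCl, passed (-0.77, adjusted p = 0.0318), as did RHL41 in heat, RD minus OE (-1.55, adjusted p = 0.0014). The RHL41 average of RD minus OE passed with only the groups compared (-1.12, adjusted p = 0.0361) and with the series block (-1.20, adjusted p = 0.0456). With the replicate block the RHL41 average of RD minus OE was -1.12 (adjusted p = 0.0358); the numbers are not shown to pair samples, and the block changed no other call. With 1 array left out that average ran from -1.40 to -0.84, and STZ in OE, heat minus NaCl, from -1.52 to -0.93. The causes were not tested. Among the lists in WT, quantile normalization gave 2 described C2H2 probe sets higher after heat. C2H2 relatives lower with NaCl numbered 1 without the trend, with the series block and in the larger series alone, and 0 to 1 with arrays left out. Reactive oxygen genes lower with NaCl numbered 1 with the series block and 1 in the larger series, and those higher numbered 1 with only the groups compared and 1 to 3 with arrays left out, as they did after heat. Described C2H2 probe sets lower with NaCl numbered 7 with the series block, 2 with only the groups compared and 1 to 5 with arrays left out; those lower after heat numbered 4 with only the groups compared and 2 to 7 with arrays left out. Upstream and CBF genes higher with NaCl numbered 2 to 4 with arrays left out. The counts that moved did so without a WT array of the treatment or the control concerned, and for the C2H2 relatives also without either OE control array. Spearman correlation chose 6 other genes for STZ and kept 1 of 6 for RHL41, LTI30, and gave 0.583 between the 2 genes. With 2 arrays a group, differences between lines had SEs of 0.31 for STZ and 0.53 for RHL41, which limits what could pass.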
